A study of Mus musculus with 15 samples.

Results

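Livers of male mice carrying an Abcb5 mutation on both alleles were compared, probe by probe, with livers of wild-type males on one-colour Illumina bead arrays. All 7 liver arrays of the series were used, 3 mutant and 4 wild-type, out of 15 arrays in all, of which the other 8 were hearts. Mice of both genotypes were of the C57BL/6J-Tyr strain and 17 weeks old, and each liver carried its own animal number in the labels. The 8 hearts held 4 of each genotype, so that 1 mutant heart had no matching liver here. Which allele the mutation is, at what time of day the livers were taken and whether the mice had fed are not given in the sources used here. Of 25697 probes, 0 carried the name Abcb5 in the platform annotation used, so the level of the mutated gene did not check the genotype labels.

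The product of Abcb5 belongs to the ATP-binding cassette transporters, as P-glycoprotein does. The liver makes plasma proteins, bile acids, glucose and lipids, and detoxifies foreign compounds with heme-containing cytochromes P450. Much of this work follows the day: a transcriptional loop in each hepatocyte, in which BMAL1 and CLOCK switch on their own repressors, drives output transcription factors and through them many metabolic enzymes. Feeding, glucocorticoids and the pulsed growth hormone of male rodents set the level of further groups of liver genes.

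Values below are log2 levels, that is, log2 of the background-corrected intensity plus 16, so the lowest level possible is near 4. Differences are mutant minus wild type on the same scale with their standard error (SE), n = 3 mutant and 4 wild-type livers. Levels of different probes were not set against each other. On each liver array 45.9% to 46.0% of probes were above background, and the arrays correlated with each other at 0.9787 to 0.9882 over the probes tested. Depth has no meaning for arrays, and the number of arrays limits the precision. The hepatocyte genes Ttr (13.30 to 13.68) and Apoa1 (13.71 to 13.97) were bright in all 7 livers, whereas the Alb probe of this array was dim in all of them (4.93 to 5.22). Of 11 genes of skeletal and heart muscle with a probe, and of 5 of kidney, 0 were above background in enough livers to be tested. In these bulk samples fewer cells of a type and less RNA per cell cannot be told apart.

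Some probes had a low set and a high set of livers that cut across the genotypes. With a gap of more than 1 on the log2 scale between the sets, in livers and also in the hearts with the same 7 mouse numbers in the labels, 14 probes did so, by a search made after the data had been seen. On 1 of the 14, a probe without a gene name, the same numbers were high in both tissues. On the other 13 the liver and the heart with the same animal number did not all agree. For Cops8, a subunit of the COP9 signalosome, the liver was near background in wild-type 2 (4.11) and mutant 1 (4.11) and at 6.23 or more in the rest. In the hearts, Cops8 was instead high in wild-type 2 (8.76), wild-type 4 (8.56) and mutant 3 (9.36), and between 4.44 and 4.63 in the other 4. The class I histocompatibility gene H2-T10 was high in the livers of mutants 2 (7.57) and 3 (8.02) and between 4.15 and 4.89 in the other 5 livers, while in hearts it was between 6.33 and 6.65 in all 4 wild types and between 4.34 and 4.80 in mutants 1 to 3. Whether livers and hearts with one number came from one animal was not tested further. The comparison within liver uses no pairing of tissues and rests on the liver labels alone.

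**Figure D1:**
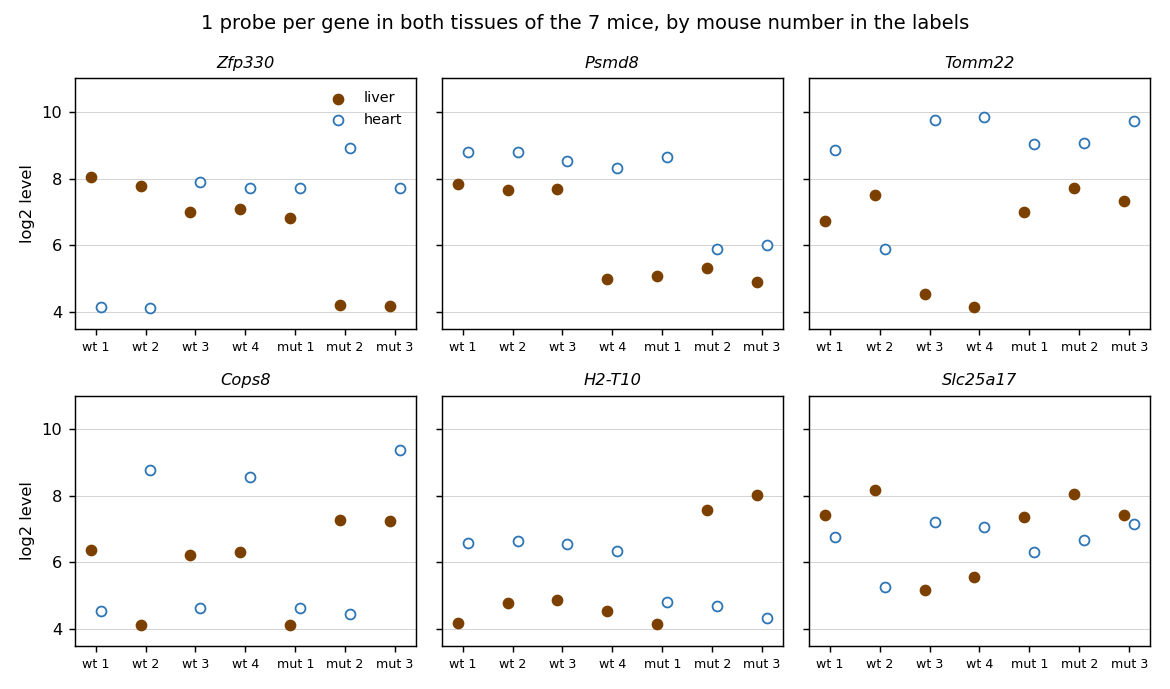
Log2 level of 1 probe for each of 6 genes (y axis) in the liver (filled) and heart (open) for the 7 animal numbers that the labels give in both tissues (x axis, wt wild type, mut mutant). Low and high levels fall on different animal numbers in the tissues, for example for Cops8, near background in the liver but not the heart of wild type 2.

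Across the liver 11945 probes of 8436 genes were above background on at least 3 of the 7 arrays and were tested. With limma and Benjamini-Hochberg adjustment, 12 probes passed an adjusted p of 0.05. They stood for 11 genes, which is 0.130% of the genes tested, and 7 of these rose and 4 fell in the mutants. The count rested on the settings and on single livers: it was 0 without the filter on dim probes, 2 without wild type 1, mutant 2 or mutant 3, 54 without mutant 1 and 152 with all 15 arrays in 1 fit. Over 16 or 17 alternative settings, the call was lost in 2 for Usp2, 3 for Alas1, 6 for Rnf125, 7 for Pdk4, 7 for Ppl, 8 for Id2, 10 for Tagap, 11 for Trip6, 12 for Ncbp2 and 13 for Man1a, and in 7 and 10 for the 2 Ciart probes. A further 23 probes had an adjusted p between 0.05 and 0.1, 9 with a positive and 14 with a negative difference, which brought the share below 0.1 to 0.293%. Unadjusted, 1358 probes (11.4%) had a p below 0.05, and on 1334 (11.2%) the genotypes did not overlap. Counted once per gene, 467 genes (5.54%) had an unadjusted p below 0.05 with a positive difference and 434 (5.14%) with a negative one, and 930 genes did not overlap. These shares are the background for the gene lists below, where "nominally higher" and "nominally lower" mean an unadjusted p below 0.05 with a positive and a negative difference. The median difference over all 8436 genes was 0.00548, and 189 genes (2.24%) differed by more than 1.5-fold in either direction. Of the tested probes, 186 were above background in the livers of 1 genotype only. Such probes passed the filter only through that genotype, which favours the sign of their difference. They remain in the counts of the lists and of all genes.

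**Figure D2:**
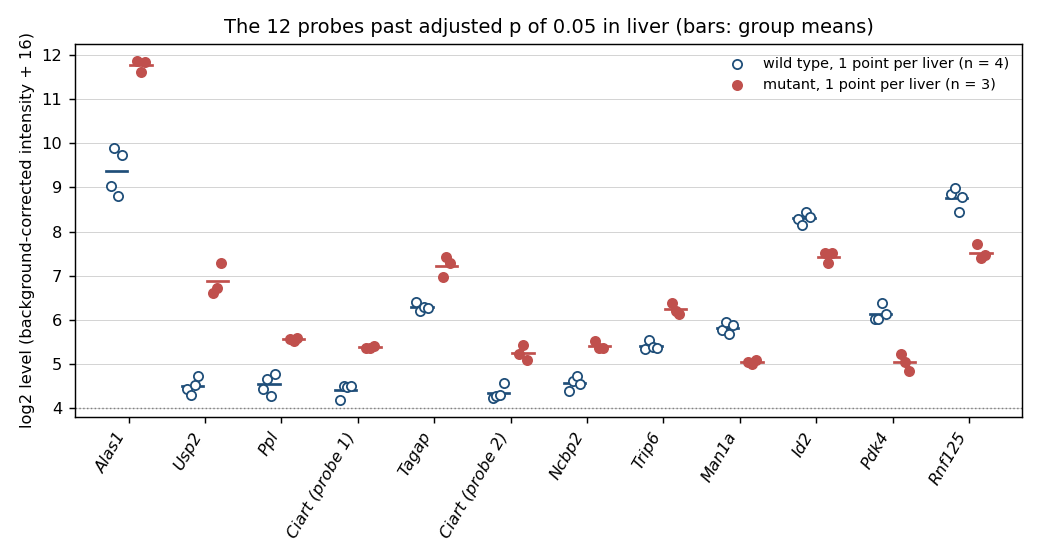
Log2 level in each liver (y axis; open, 4 wild-type; filled, 3 mutant; bars, group means) of the 12 probes past an adjusted p of 0.05 (x axis). On every one of the 12 the mutant livers lie apart from the wild-type livers, and the dotted line marks the lowest level that the offset of 16 allows.

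Alas1, which encodes the rate-limiting first enzyme of heme synthesis in liver, rose in the mutants. Its level was 9.02, 9.91, 8.80 and 9.74 in the wild-type livers and 11.87, 11.62 and 11.84 in the mutant livers. The mutants were all above the wild types and close to each other. The difference was 2.41 ± 0.24, or 5.31-fold (adjusted p = 0.00357). Of 12 tested genes of heme synthesis and breakdown, Alas1 was the 1 with an unadjusted p below 0.05. Among the other enzymes of synthesis, Alad stood at 0.01 ± 0.16, Uros at -0.09 ± 0.14, Urod at 0.20 ± 0.13, Cpox at 0.34 ± 0.18, Ppox at 0.13 ± 0.14 and Fech at -0.09 ± 0.15. The breakdown genes Hmox1, the inducible heme oxygenase, and Hmox2, the constitutive one, stood at -0.34 ± 0.36 and -0.24 ± 0.14. Of 5 tested red-cell markers 2 had an unadjusted p below 0.05. Slc4a1, the anion exchanger of the red cell membrane, was not well above background in any wild-type liver and was at least 1.22-fold higher in the mutants. Slc4a1 is 1 of these 2 and passed the filter only through the mutants. The alpha-globin gene Hba-a1 differed by 0.52 ± 0.21, and Alas2, the red-cell form of the enzyme, by 0.30 ± 0.20. Their part in the Alas1 difference was not tested. Hba-a1 was between 11.94 and 12.55 in wild types and 13.15, 13.03 and 12.34 in mutants, so the groups overlapped.

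The list of iron handling gave 1 nominally higher and 2 nominally lower members among 12 tested. The 2 lower ones were Hfe and Id1 (-1.22). Id1 is not itself a gene of iron handling, and it is counted again with its relatives Id2 and Id3 below. Hamp, the hepcidin gene itself, stood at -0.01. Its homologue Hamp2 stood at 1.47 ± 0.43, with wild-type levels of 9.63, 7.67, 9.10 and 8.71 against 11.16, 10.05 and 9.54. Mutant 3 thus lay inside the wild-type range of Hamp2. Hfe, the gene of hereditary hemochromatosis, stood at -0.48 ± 0.17 on its brighter probe and at -0.07 ± 0.14 on the other. The iron exporter gene Slc40a1 (0.10 ± 0.13), the transferrin receptor genes Tfrc (-0.11 ± 0.16) and Tfr2 (0.12 ± 0.13) and the ferritin heavy chain gene Fth1 (-0.18 ± 0.12) all lay within 0.2 of 0.

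In the clock list the repressors and outputs were mostly on the positive side and the activators mostly on the negative side. Of 19 tested members, 9 had an unadjusted p below 0.05 with a positive and 5 with a negative difference, against 5.54% and 5.14% of all genes, and 11 did not overlap between genotypes, against 930 of all 8436 genes. The list median was 0.20. Usp2 and Ciart passed the threshold over all probes. Earlier results of these data had already pointed to the clock, so the list is not independent evidence.

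Among the outputs, Usp2, a ubiquitin-specific protease whose transcript follows the clock in liver, was 4.43, 4.28, 4.52 and 4.71 in wild types and 6.60, 6.72 and 7.29 in mutants. It rose by 2.39 ± 0.18 (adjusted p = 0.000268). Only 3 of the 4 wild-type livers were above background, so the size depends on the offset, and the Usp2 difference ran from 0.87 to 3.36 over the settings. Dbp, a PAR-domain transcription factor driven directly by the loop, was 6.98, 7.13, 8.77 and 9.16 in wild types and 10.27, 10.55 and 10.52 in mutants. Its mutant livers agreed within 0.27, whereas its wild-type livers were spread over 2.18, with wild types 1 and 2 low and 3 and 4 higher. The difference was 2.44 ± 0.45 (adjusted p = 0.0929). Tef, of the same family, was 6.23, 6.06, 6.03 and 6.92 against 7.26, 7.59 and 7.68, a difference of 1.20 ± 0.21 (adjusted p = 0.0695). Hlf, the remaining member of the family, stood at -0.14 ± 0.14, near background in all livers.

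Among the repressors, Ciart, a repressor of CLOCK and BMAL1, was covered by 2 probes. The first read 4.18, 4.50, 4.47 and 4.49 in wild types and 5.36, 5.37 and 5.40 in mutants, and the other 4.23, 4.27, 4.28 and 4.56 against 5.21, 5.43 and 5.08. Both rose (0.97 ± 0.13 and 0.91 ± 0.14, adjusted p = 0.0179 and 0.0336), but 3 and 1 of the 4 wild-type livers were above background on them. Over the settings the Ciart differences ran from 0.24 to 1.70 and from 0.22 to 1.68, and the calls were lost in 7 and 10 of 16. The period genes were all on the positive side. Per2 was 6.18, 5.83, 6.68 and 6.89 against 7.31, 7.67 and 7.90 on its brighter probe (1.23 ± 0.24, adjusted p = 0.0974), and its other probe stood at 1.07 ± 0.21. Per3 stood at 0.68 ± 0.14 and Per1 at 0.65 ± 0.27. On the brighter Per1 probe mutant 2 (5.11) lay inside the wild-type range, so the groups overlapped. Cry2, a cryptochrome repressor, stood at 0.52 ± 0.17. Nr1d1 and Nr1d2, which encode the REV-ERB receptors that repress Arntl, stood at 0.13 ± 0.19 and 0.64 ± 0.26. Nfil3, a repressor that competes with the PAR-domain factors, lay on the other side: it was 9.51, 9.25, 8.83 and 8.42 in wild types and 8.04, 7.99 and 8.36 in mutants (-0.87 ± 0.23). The casein kinase genes Csnk1d and Csnk1e, whose products phosphorylate PER proteins, stood at -0.45 ± 0.13 and -0.42 ± 0.15.

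Among the activators, Arntl, which encodes BMAL1, was 6.62, 6.62, 5.64 and 6.26 in wild types and 5.41, 5.31 and 5.45 in mutants. The groups did not overlap, with wild type 3 nearest to the mutants, and the difference was -0.90 ± 0.21. Npas2, which can replace CLOCK, was above background in all 4 wild-type livers and in 0 mutant livers, at least 1.16-fold lower in the mutants. Npas2 is counted among the nominally lower clock genes but passed the filter only through the wild types. Clock itself stood at -0.13 ± 0.14 and Rora, an activator of Arntl, at 0.17 ± 0.16. The time of day was not given for any sample, so its part in these differences was not tested.

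**Figure D3:**
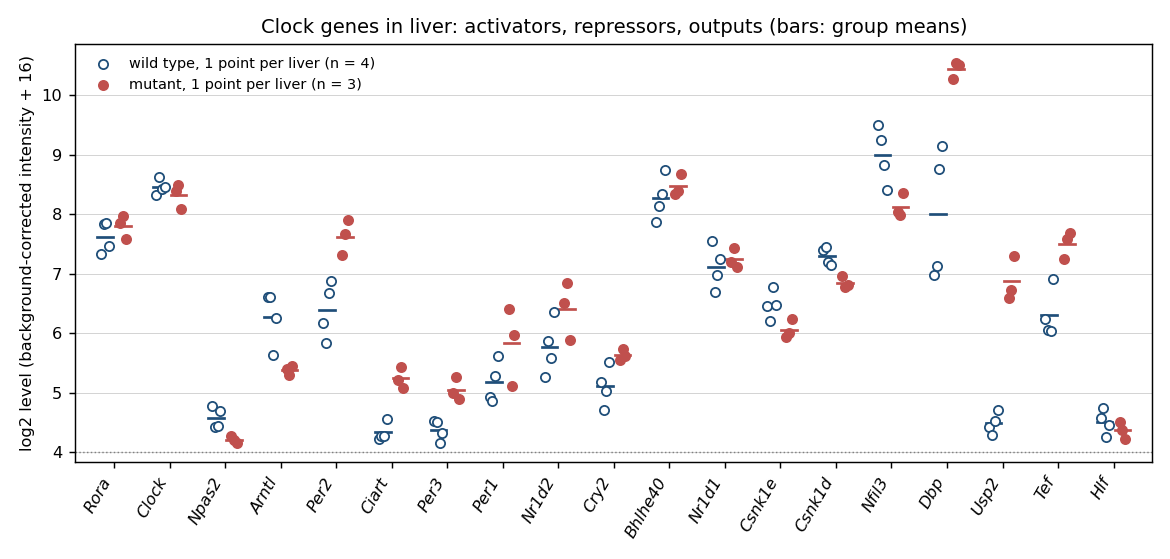
Log2 level in each liver (y axis; open, 4 wild-type; filled, 3 mutant; bars, group means) of the 19 tested clock genes, grouped as activators (Rora to Arntl), repressors (Per2 to Nfil3) and outputs (Dbp to Hlf). Dbp spans 6.98 to 9.16 in wild types and 10.27 to 10.55 in mutants, and Arntl lies at 5.31 to 5.45 in mutants below all wild types.

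The loop acts through short promoter motifs, and these are shown for clock genes that hold one near the start of transcription. Windows of 250 bases before to 50 bases after the start, from RefSeq on GRCm38.p6, were at hand for 16 of the 19 clock genes and were searched on both strands. A gene counted if any of its windows held the motif, whereas the shares given beside are of single windows. The E-box CACGTG, bound by CLOCK and BMAL1, was found in Ciart, Per1 and Tef, and in 7.15% of the 32851 windows searched. The D-box TTANGTAA, bound by the PAR-domain factors and NFIL3, was found in Per3 (2.323% of windows), and the element of the REV-ERB and ROR receptors, the RORE, in Arntl (0.219%). For each gene below the first window that held the motif is shown, with capitals marking the motif. They lie on chr3:95882179-95882478 (minus strand, Ciart), chr15:81802423-81802722 (plus strand, Tef), chr4:151044616-151044915 (minus strand, Per3) and chr7:113207261-113207560 (plus strand, Arntl).
Ciart: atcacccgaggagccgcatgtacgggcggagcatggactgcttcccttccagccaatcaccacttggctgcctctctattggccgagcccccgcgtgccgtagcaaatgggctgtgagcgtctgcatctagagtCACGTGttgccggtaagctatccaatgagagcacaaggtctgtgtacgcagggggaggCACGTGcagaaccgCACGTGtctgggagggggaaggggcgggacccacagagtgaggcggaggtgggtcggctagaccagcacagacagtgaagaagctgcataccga
Tef: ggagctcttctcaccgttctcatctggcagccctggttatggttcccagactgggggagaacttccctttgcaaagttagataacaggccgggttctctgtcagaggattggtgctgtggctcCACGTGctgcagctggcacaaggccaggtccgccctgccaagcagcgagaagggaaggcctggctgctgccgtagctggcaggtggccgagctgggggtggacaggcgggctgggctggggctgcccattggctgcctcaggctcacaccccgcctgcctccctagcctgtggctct
Per3: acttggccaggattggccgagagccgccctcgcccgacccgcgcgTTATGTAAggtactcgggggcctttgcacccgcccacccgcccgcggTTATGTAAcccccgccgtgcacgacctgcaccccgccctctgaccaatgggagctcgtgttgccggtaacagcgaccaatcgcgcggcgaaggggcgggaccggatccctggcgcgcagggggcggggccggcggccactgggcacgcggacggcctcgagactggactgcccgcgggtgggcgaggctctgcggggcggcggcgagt
Arntl: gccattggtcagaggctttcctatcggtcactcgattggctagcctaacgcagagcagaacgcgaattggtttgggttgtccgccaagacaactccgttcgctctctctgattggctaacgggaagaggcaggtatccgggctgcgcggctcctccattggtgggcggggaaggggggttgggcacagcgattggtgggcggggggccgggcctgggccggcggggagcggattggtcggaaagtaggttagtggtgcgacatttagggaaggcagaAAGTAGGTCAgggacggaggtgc
The Ciart window holds the E-box 3 times, with first bases 116, 58 and 44 before the start, and that of Tef holds it once, 127 before. In Per3 the D-box begins 205 and 158 before the start, and in Arntl the element begins 27 after it. A match describes these letters and was not tested as a site in these livers.

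Fuel genes showed lower Pdk4 in the mutants and members of both signs around it. Pdk4 encodes the kinase that shuts pyruvate dehydrogenase off during fasting. Its level was 6.02, 6.03, 6.38 and 6.13 in wild types and 5.22, 5.03 and 4.84 in mutants, and it fell by 1.11 on the log2 scale (SE 0.14, adjusted p = 0.0179). Pdk2, another of these kinases, was 5.87, 5.74, 5.76 and 5.71 against 6.17, 6.57 and 6.28, a difference of 0.57 ± 0.13 with no overlap. Pdha1, a subunit of the enzyme itself, stood at 0.29 ± 0.13 and Pdk1 at 0.30 ± 0.15. Of 8 tested genes of pyruvate dehydrogenase and its control, 2 were nominally higher and 1 nominally lower.

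Of 33 tested genes of fatty acid oxidation, 3 had an unadjusted p below 0.05 with a positive and 4 with a negative difference, and the median was 0.08. The genes of the PPAR-alpha axis went both ways. Ppargc1a, a coactivator of fasting metabolism, was 4.76, 4.98, 5.01 and 4.85 in wild types and 5.85, 5.69 and 5.28 in mutants (0.71 ± 0.15), while Plin2, a lipid droplet coat gene, stood at -0.64 ± 0.22 and Fgf21, a hormone gene of fasting, at -0.85 ± 0.38. Fgf21 was 7.12, 6.22, 6.36 and 4.88 in wild types, so that wild type 4 lay below the mutants (5.31, 5.12 and 5.46). Cyp4a14, an omega-hydroxylase of fatty acids, was 8.35, 7.45, 7.13 and 9.57 in wild types and 11.48, 10.29 and 10.13 in mutants, a difference of 2.51 ± 0.50 (adjusted p = 0.113). The 13 genes of mitochondrial beta oxidation had a median of 0.03 and a range of -0.31 to 0.26. Acadm stood at 0.13 ± 0.11, Hadhb at 0.08 ± 0.13 and Etfa at 0.02 ± 0.12. Of the carnitine transfer genes, Cpt2 stood at 0.25 ± 0.13 and Slc25a20 at 0.15 ± 0.14. The 2 tested ketone body genes, Acat1 and Bdh1, stood at 0.09 and 0.06.

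The fatty acid synthesis list had 6 nominally higher and 2 nominally lower members among 23 tested, and its median was 0.17. Positive members included Acaca, acetyl-CoA carboxylase, which was 8.59, 8.59, 8.60 and 8.92 in wild types and 9.11, 9.61 and 9.17 in mutants (0.62 ± 0.15). The phosphatidate phosphatase genes Lpin2 and Lpin1 stood at 0.90 ± 0.19 and 0.93 ± 0.30, Dgat2, which completes triglycerides, at 0.34 ± 0.14, and Srebf1, the regulator of lipogenesis, at 0.46 ± 0.19. Fasn was above background in 0 wild-type and all 3 mutant livers on its probe, and was at least 1.14-fold higher in the mutants. Fasn is 1 of the 6 nominally higher members but passed the filter only through the mutants. The genes Acly (0.07 ± 0.26), Scd1 (0.17 ± 0.15), Elovl5 (0.02 ± 0.14) and Mlxipl, which encodes the glucose sensor ChREBP (-0.02 ± 0.20), lay near 0. On the negative side were Elovl3, an elongase typical of male liver, at 8.20, 7.89, 7.97 and 7.57 against 6.86, 7.07 and 6.95 (-0.95 ± 0.15, adjusted p = 0.0555), and Insig2. INSIG proteins hold SREBP back in the endoplasmic reticulum. Insig2 read 11.18, 11.45, 11.17 and 11.26 against 10.69, 10.55 and 10.29 on its brightest probe (-0.75 ± 0.14, adjusted p = 0.0913). A further Insig2 probe stood at -0.95 ± 0.18 and the remaining one at 0.18 ± 0.26, so the probes of this gene disagreed. Insig1 gave the same split, with probes at -0.96 ± 0.21, -0.85 ± 0.20 and -0.03 ± 0.17. Mfsd2a, a carrier of lysophospholipids, was 7.27, 6.55, 8.52 and 8.55 in wild types and 9.36, 9.59 and 9.84 in mutants (1.87 ± 0.41), with wild types 1 and 2 lower than 3 and 4, as for Dbp.

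In cholesterol synthesis 15 of 18 tested genes had a negative difference, and 1 of them, Nsdhl, had an unadjusted p below 0.05. The median was -0.13. All 4 probes of Nsdhl, a sterol dehydrogenase, were negative, at -0.64 ± 0.23 on the brightest. Mutant 3 was the lowest of the 7 livers on most of them, with 6.78 on the brightest probe against 7.36 and 7.83 in the other mutants and 7.55 to 8.17 in wild types.

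Of 23 tested genes of glucose production and glycogen, 1 was nominally higher and 2 were nominally lower. Ppp1r3c, which targets a phosphatase to glycogen, was 10.54, 10.34, 10.62 and 10.36 in wild types and 9.90, 9.27 and 9.64 in mutants (-0.86 ± 0.16, adjusted p = 0.0929). The lactate dehydrogenase gene Ldha stood at -0.32 ± 0.13. Pck1, the key enzyme of gluconeogenesis, stood at 0.28 ± 0.28, Gys2, liver glycogen synthase, at 0.30 ± 0.19, and Slc2a2, the hepatocyte glucose transporter gene, at 0.26 ± 0.17. The 13 genes of the citric acid cycle gave a median of 0.00, with Ogdh at 0.32 ± 0.13, and 0 of 33 complex I genes had a positive and 1, Ndufb10 (-0.95 ± 0.22), a negative difference at an unadjusted p below 0.05.

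Among 35 genes of the urea cycle and amino acid breakdown, 0 were nominally higher and 3 nominally lower, and the median was 0.01. Ddc, the aromatic amino acid decarboxylase, was 9.23, 9.21, 9.60 and 9.50 in wild types and 8.47, 8.64 and 8.64 in mutants, apart by -0.80 ± 0.14 (adjusted p = 0.0679). Nags, whose product makes the activator of the urea cycle, stood at -0.47 ± 0.15 and Kynu, of tryptophan breakdown, at -0.36 ± 0.13. The urea cycle enzymes Cps1 (-0.11 ± 0.14), Ass1 (0.11 ± 0.11), Asl (-0.17 ± 0.14) and Arg1 (0.16 ± 0.13) lay within 0.2 of 0. Of 14 genes of methionine and one-carbon metabolism, Ahcy, the hydrolase of S-adenosylhomocysteine, was the 1 with an unadjusted p below 0.05 (0.38 ± 0.13).

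**Figure D4:**
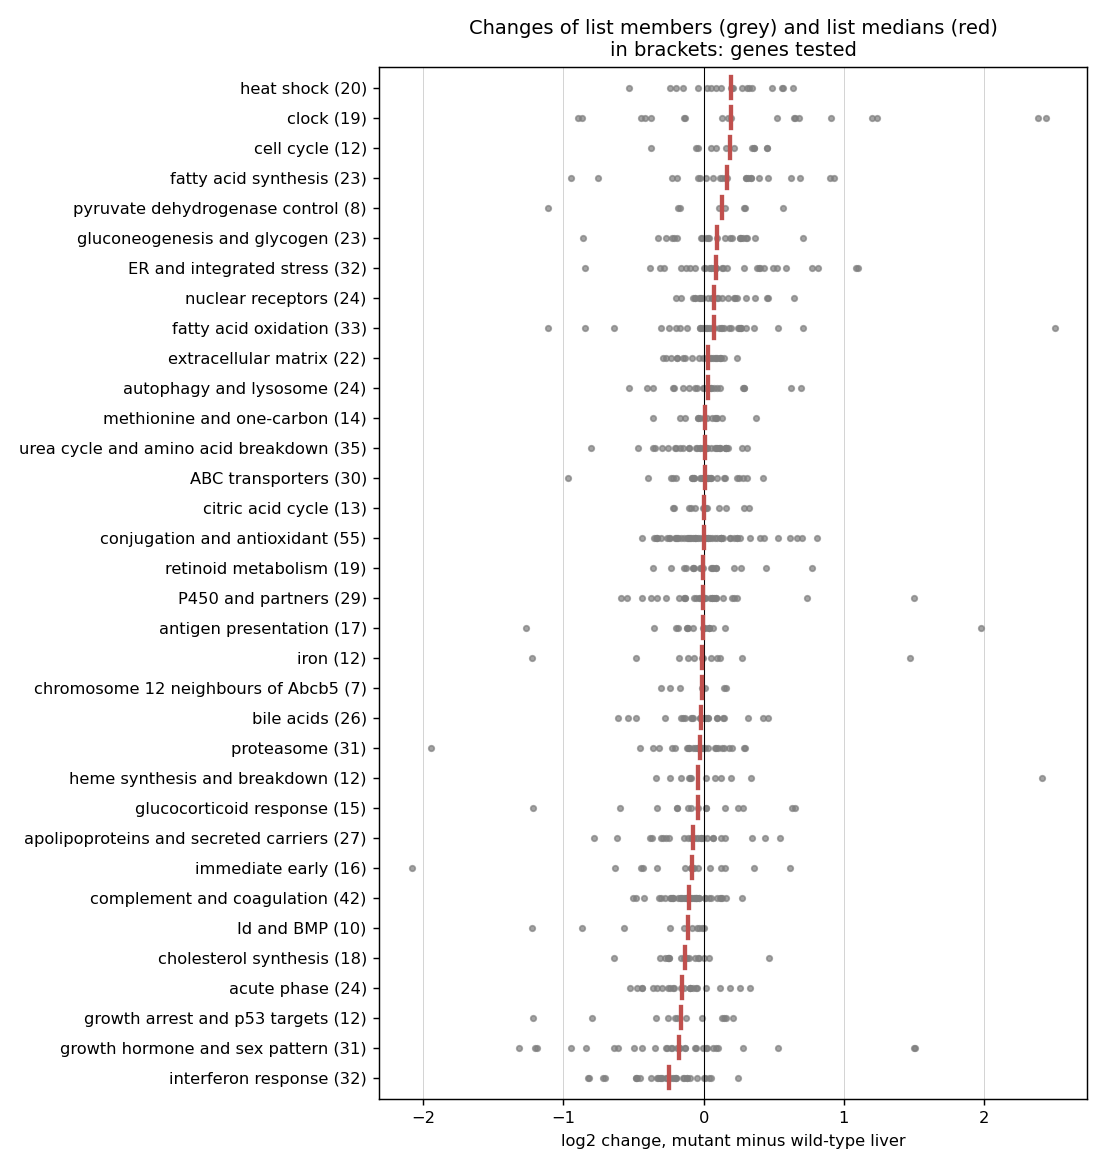
Log2 difference of each tested member (grey points; x axis, mutant minus wild type) and the median (red bar) of 34 functional gene lists, sorted by median, with the number of genes tested in brackets. Medians run from -0.25 for the interferon response to 0.20 for heat shock, while the median of all 8436 genes was 0.00548.

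Bile acid and drug-metabolism genes gave members of both signs, with medians of -0.02 for bile acids and -0.07 for P450s of drug metabolism. Of 26 bile acid genes 3 were nominally higher and 3 nominally lower. Cyp7b1, of the alternative synthesis pathway, was 12.34, 12.60, 12.49 and 12.54 in wild types and 11.67, 12.05 and 11.92 in mutants (-0.61 ± 0.13, no overlap). The uptake carrier genes Slco1b2 and Slco1a4 stood at -0.48 ± 0.14 and -0.54 ± 0.21, while the export gene Abcc3 stood at 0.42 ± 0.16. Slc10a1, the main sodium-dependent bile acid carrier gene, stood at -0.15 ± 0.12, and Nr5a2, a receptor that drives bile acid synthesis, at 0.46 ± 0.15.

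Of 21 tested P450 genes of drug metabolism, 2 were nominally higher and 4 nominally lower. On the negative side were Cyp2c70 (-0.54 ± 0.13), Cyp3a25 (-0.59 ± 0.16) and Cyp3a11 (-0.44 ± 0.13), all with no overlap. Cyp2a5 stood at 0.74 ± 0.25, with all 3 of its probes between 0.70 and 0.74. Cyp2b9, a P450 typical of female liver, was above background in 0 of 4 wild-type livers and in all 3 mutants, at 7.17, 5.03 and 4.91. It was at least 2.52-fold higher in the mutants. Cyp2b9 is 1 of the 2 nominally higher genes but passed the filter only through the mutants. Mutant 1 stood well above mutants 2 and 3. Cyp2e1 stood at -0.05 ± 0.12. Of 8 tested genes of the electron donors and receptors of the system, 0 had an unadjusted p below 0.05. The glutathione transferases gave 5 nominally higher and 0 nominally lower of 21 tested, although their median was -0.03. Gstt2 was 7.61, 6.93, 6.91 and 7.27 in wild types and 7.94, 7.98 and 7.72 in mutants (0.70 ± 0.18), Gstt3 stood at 0.67 ± 0.19 and Mgst3 at 0.43 ± 0.13. Gsta1 stood at 0.81 ± 0.29, with mutants 2 and 3 at 7.37 and mutant 1, at 5.95, inside the wild-type range. Of 8 glucuronosyltransferase genes 0 were nominally higher and 1 was nominally lower. In retinoid metabolism, 2 of 19 genes were nominally higher and 0 nominally lower: Rdh16, a retinol dehydrogenase, was 6.63, 6.29, 6.18 and 6.08 in wild types and 7.10, 7.09 and 7.02 in mutants (0.77 ± 0.14, adjusted p = 0.0929), and Aldh1a1, which makes retinoic acid, stood at 0.45 ± 0.14.

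Among 30 ABC transporter genes, relatives of the mutated gene, 2 were nominally higher and 2 nominally lower. Besides Abcc3 the nominally higher one was Abcb6, a mitochondrial porphyrin transporter (0.31 ± 0.13). Abca3, a lipid transporter, stood at -0.97 ± 0.26, and Abca8b at -0.40 ± 0.17. Abca3 was 9.59, 9.61, 9.70 and 9.95 in wild types, 9.57 in mutant 1 and 8.28 and 8.38 in mutants 2 and 3. Of 7 tested genes that neighbour Abcb5 on chromosome 12, 0 had an unadjusted p below 0.05, with a range of -0.30 (Snx13) to 0.16 (Bzw2).

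Of 13 tested male-typical genes 11 had a negative difference, 4 of them with an unadjusted p below 0.05, and the median was -0.23. Hsd3b5, a steroid dehydrogenase of male mouse liver, was 11.78, 11.27, 11.62 and 11.66 in wild types and 10.83, 10.69 and 10.72 in mutants (-0.84 ± 0.14, adjusted p = 0.066). Selenbp2 was 9.95, 10.62, 10.004 and 9.999 against 8.24, 9.39 and 9.25 (-1.19 ± 0.26), with mutant 1 the lowest. Of 5 major urinary protein genes 4 had a negative difference, with Mup5 at -0.33 ± 0.14 and Mup20 at -0.23 ± 0.27. Their sequences are close to each other, so a probe may read more than 1 of them. Of 12 female-typical genes with a probe only 3 were tested, and all 3 had a positive difference, Cyp2b9 the farthest. Cyp2b9 passed the filter only through the mutant livers, so the filter itself favoured its sign. The others, Acot3 (0.53) and Prom1 (0.03), were not nominally higher, so the common sign says little about this group. Cish, a feedback inhibitor of the receptor's signalling, was 7.48, 8.80, 5.84 and 7.31 in wild types and 8.64, 9.49 and 8.46 in mutants (1.51 ± 0.52), and Bcl6, a repressor of female-typical genes, 8.09, 9.45, 10.11 and 10.06 against 8.46, 8.48 and 7.40 (-1.32 ± 0.43). Both overlapped between genotypes. Egfr, the gene of the epidermal growth factor receptor, stood at -1.20 ± 0.29 on its brightest probe, with 10.75, 9.77, 10.75 and 11.13 against 9.89, 9.03 and 9.27, and at -0.42 ± 0.23, -0.30 ± 0.15 and -0.17 ± 0.16 on 3 others.

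The interferon list had the lowest median of the 34 functional lists plotted, -0.25, and 27 of its 32 tested members had a negative difference. Of the 32 members 0 were nominally higher and 7 nominally lower, against 5.54% and 5.14% of all genes. On 7 the genotypes did not overlap, against 930 of all 8436 genes. Rsad2, which encodes the antiviral protein viperin, was 6.78, 7.29, 6.60 and 7.06 in wild types and 6.22, 6.26 and 6.21 in mutants (-0.70 ± 0.16). Cxcl9, a chemokine gene induced by interferon gamma, was 7.50, 7.76, 7.51 and 7.50 against 7.15, 6.49 and 6.90 (-0.72 ± 0.16). Gbp3, a guanylate-binding protein gene, stood at -0.83 ± 0.16 on its brighter probe (adjusted p = 0.0974) and at -0.24 ± 0.27 on the other. Wild type 4 was the highest liver for several members: Usp18 was 5.92, 6.21, 5.65 and 7.62 in wild types, and Irf9 6.13, 6.42, 6.07 and 6.95. Over the settings the median of the interferon list ran from -0.38 to -0.08. Class I and class II presentation genes had a median of 0.00 over 17 tested, which ran from -0.20 to 0.10 over the settings. In that list 1 member was nominally higher, H2-T10 (1.97 ± 0.70), and 2 were nominally lower, H2-T23 (-1.26 ± 0.35) and H2-Q7 (-0.35 ± 0.16), with B2m at -0.12 ± 0.13 and Cd74 at -0.20 ± 0.27. Lgals9, which encodes galectin-9, stood at -0.94 ± 0.18 and -0.62 ± 0.15 on its 2 probes.

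Of 24 acute-phase genes 19 had a negative difference, 3 were nominally lower and 0 nominally higher, and the median was -0.15. Itih3 stood at -0.44 ± 0.18, Cxcl1 at -0.48 ± 0.20 and the serum amyloid gene Saa1 at -0.36 ± 0.21. Of 20 complement genes 18 had a negative difference and 3 were nominally lower. C8b, of the membrane attack complex, was 10.78, 11.17, 10.71 and 10.72 in wild types and 10.15, 10.48 and 10.40 in mutants (-0.50 ± 0.15), and C8a and C2 stood at -0.48 ± 0.20 and -0.30 ± 0.13. For C1s1, a protease of the first complement component, the probes read -0.32 ± 0.20 and -0.97 ± 0.25. Of 22 coagulation genes 0 had an unadjusted p below 0.05. Apom, which carries sphingosine phosphate on high-density lipoprotein, was 10.78, 11.12, 10.78 and 10.32 against 10.28, 9.93 and 9.69 (-0.78 ± 0.19), while Apoa1 stood at -0.02 ± 0.12. Of 39 tested chemokine and interleukin genes, receptors and binding proteins, 2 were nominally higher and 8 nominally lower, Il18bp among them at -0.40 ± 0.12.

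Among chaperone genes, 15 of 20 heat-shock genes had a positive difference. In that list 7 members had an unadjusted p below 0.05 with a positive and 1 with a negative difference, and the median was 0.20. Hspe1, the mitochondrial co-chaperonin, was 7.78, 7.71, 7.61 and 7.92 in wild types and 8.27, 8.31 and 8.59 in mutants (0.64 ± 0.13). Stip1 and Fkbp4, partners of HSP90, stood at 0.49 ± 0.18 and 0.34 ± 0.13, Hsph1 at 0.57 ± 0.23, and Hspa8, the constitutive HSP70, at 0.21 ± 0.14. Hsf2, a heat-shock transcription factor, stood at -0.53 ± 0.22 near background. Of 7 subunits of the cytosolic chaperonin, 5 had a positive difference and 2 were nominally higher, Cct8 (0.32 ± 0.14) and Cct3 (0.44 ± 0.14, with its dimmer probe at 0.05 ± 0.12). The endoplasmic reticulum and integrated stress genes gave 8 nominally higher and 2 nominally lower of 32 tested, with a median of 0.09. Hsp90b1 and Pdia4, of protein folding in the endoplasmic reticulum, stood at 0.59 ± 0.22 and 0.43 ± 0.16. Chac1, which degrades glutathione, was 6.64, 6.78, 6.03 and 5.68 against 7.07, 7.20 and 7.01 (0.81 ± 0.23). Vldlr, a lipoprotein receptor gene that this stress response also induces, stood at 1.10 ± 0.35 on its brightest probe and at 1.00 ± 0.27 and 0.48 ± 0.29 on 2 others, with mutant 1 at 6.90 and mutants 2 and 3 at 5.18 and 5.26.

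Of 31 proteasome genes 1 was nominally higher and 3 were nominally lower. The farthest, Psmd8, did not follow the genotype: it was 7.83, 7.65 and 7.68 in wild types 1 to 3, but 4.997 in wild type 4, beside 5.07, 5.32 and 4.90 in the mutants. Of 24 genes of lysosome and autophagy 2 were nominally higher, Hexa, a lysosomal hexosaminidase (0.62 ± 0.15), and Lipa, the lysosomal lipase (0.69 ± 0.18), both without overlap, and 0 were nominally lower. Asah1, acid ceramidase, stood at -0.75 ± 0.15 on a dimmer and at -0.33 ± 0.13 on its brighter probe.

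Id2, an inhibitor of helix-loop-helix transcription factors and a target of bone morphogenetic protein (BMP) signalling, fell in the mutants. It was 8.29, 8.15, 8.44 and 8.33 in wild types and 7.51, 7.28 and 7.50 in mutants (-0.87 ± 0.13, adjusted p = 0.0323), but a dimmer probe stood at 0.03 ± 0.14. Its relatives lay on the same side. Id1 was 5.90, 6.41, 6.25 and 5.49 against 5.59, 4.24 and 4.54 (-1.22 ± 0.30), and Id3 6.21, 6.26, 6.70 and 6.11 against 5.88, 5.61 and 5.76 (-0.57 ± 0.16). Of the 10 tested members of the Id and BMP list 9 had a negative difference, 3 of them, the Id genes, with an unadjusted p below 0.05. Hamp (-0.01), Smad4 (-0.04 ± 0.14), Smad5 (-0.05 ± 0.15) and Bmp4 (-0.08 ± 0.19) lay near 0.

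Egr1, an immediate early transcription factor gene, was 10.95, 10.35, 8.83 and 8.28 in wild types and 8.01, 7.77 and 6.79 in mutants. The groups did not overlap, but the wild types were spread over more than the gap between the means, with wild types 1 and 2 high and 3 and 4 near the mutants (-2.08 ± 0.55, adjusted p = 0.199). Of 16 immediate early genes 2 were nominally higher and 3 nominally lower. Cdkn1a, which encodes the cell-cycle inhibitor p21, was ordered alike among the wild types, at 7.24, 6.83, 6.04 and 5.65, against 5.97, 4.86 and 4.84 (-1.22 ± 0.37), and its dimmer probe stood at -0.35 ± 0.22. Bbc3, which encodes the p53 target PUMA, was 7.40, 7.59, 7.44 and 7.14 against 6.67, 6.21 and 6.91 (-0.79 ± 0.17), with 2 dimmer probes at -0.33 ± 0.18 and 0.15 ± 0.14. Among 12 cell-cycle genes, 4 were nominally higher, Tk1 (0.46 ± 0.15), E2f1 (0.45 ± 0.16), Mcm4 (0.35 ± 0.15) and Mcm2 (0.36 ± 0.15), and Ccnd1, cyclin D1, was nominally lower (-0.37 ± 0.16). Mcm2 was between 4.33 and 4.96 in all 7 livers, close to background. Ccng2, a cyclin gene of growth arrest, was above background in 3 wild-type livers (5.98, 5.47 and 5.62) and in 0 mutants, at least 1.98-fold lower, and wild type 4 (4.35) was close to the mutants. Plk3, a stress-responsive kinase gene, stood at 1.14 ± 0.26. Hhex, a homeobox gene of liver development, was 8.45, 10.11, 8.35 and 8.74 against 10.17, 10.71 and 10.18 (1.44 ± 0.35), with wild type 2 close to the mutants.

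Of 15 glucocorticoid-response genes 2 were nominally higher and 1 nominally lower. Fkbp5, a co-chaperone of the glucocorticoid receptor and a textbook target of it, was 5.31, 4.98, 5.28 and 5.56 in wild types and 6.11, 5.94 and 5.71 in mutants (0.63 ± 0.16), while Tsc22d3, which encodes GILZ, stood at 0.24 ± 0.24 and Sgk1 at 0.02 ± 0.24. Tsc22d1 stood at -0.94 ± 0.15 (adjusted p = 0.0606).

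The remaining called genes belong to different classes. Rnf125, a ubiquitin ligase gene, was 8.85, 8.99, 8.44 and 8.77 in wild types and 7.71, 7.39 and 7.46 in mutants, and fell by 1.24 on the log2 scale (SE 0.15, adjusted p = 0.0173). Its other probe stood at -0.64 ± 0.20. Rnf144a, another ligase gene, was 5.46, 5.63, 5.40 and 5.36 against 4.88, 4.62 and 4.63 (-0.75 ± 0.13, adjusted p = 0.066). Of the 44 RING finger genes tested 1 was nominally higher and 4 were nominally lower. Tagap, a GTPase-activating protein gene known from T cells, was 6.40, 6.19, 6.29 and 6.26 against 6.98, 7.42 and 7.27 and rose by 0.94 ± 0.14 (adjusted p = 0.0323). Of 9 T-cell markers with a probe 2 were tested, Cd3e at -0.07 ± 0.13 and Thy1 at 0.08 ± 0.23. Ppl, which encodes the cytoskeletal linker periplakin, was 4.44, 4.66, 4.28 and 4.76 against 5.55, 5.51 and 5.59 (1.02 ± 0.14, adjusted p = 0.0267). Trip6, a LIM-domain adaptor gene, was 5.33, 5.53, 5.39 and 5.37 against 6.38, 6.19 and 6.13 (0.83 ± 0.12, adjusted p = 0.0323). Its dimmer probe stood at -0.16 ± 0.18. Ncbp2, of the nuclear cap-binding complex, was 4.38, 4.61, 4.71 and 4.54 against 5.52, 5.36 and 5.36 (0.85 ± 0.13, adjusted p = 0.0323), and its dimmer probe stood at 0.30 ± 0.16. Man1a, a Golgi mannosidase gene, was 5.76, 5.94, 5.66 and 5.87 against 5.04, 5.004 and 5.09 and fell by 0.76 on the log2 scale (SE 0.12, adjusted p = 0.0462). The mutants were apart from the wild types in each of these genes.

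RNA-binding and trafficking families held a few members that lay apart. Of 14 hnRNP genes 0 were nominally higher and 4 nominally lower, Hnrnpa1 (-0.68 ± 0.12, adjusted p = 0.0818, its dimmer probe at 0.10 ± 0.14), Hnrnpk (-0.67 ± 0.16) and Hnrnpa2b1 (-0.45 ± 0.14) the first 3, yet the family's median was 0.01. Of 11 Kruppel-like factor genes 4 were nominally higher and 0 nominally lower, led by Klf13 (0.60 ± 0.15). Of 45 Rab GTPase genes 1 was nominally higher, Rab22a (0.53 ± 0.14), and 5 were nominally lower, led by Rab6a (-0.51 ± 0.13). Cytosolic ribosomal protein genes gave 1 nominally higher and 3 nominally lower of 59 with a median of -0.04, and mitochondrial ones 1 and 2 of 71. Solute carriers gave 13 and 14 of 174. Over all genes the shares were 5.54% and 5.14%. Tubb2b, a beta-tubulin gene, stood at -0.78 ± 0.18 and Krt23, a keratin gene, at 0.91 ± 0.21.

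Markers of the other cells of the liver gave few differences. Of 10 tested Kupffer cell markers 1 was nominally higher, the scavenger receptor gene Cd163 (0.59 ± 0.22), and 8 had a negative difference, Vsig4 at -0.10 ± 0.28 and C1qb at -0.24 ± 0.24. Of 14 endothelial markers 0 had an unadjusted p below 0.05, and their median was 0.00. Of 9 stellate cell and fibroblast markers 1 was nominally lower, Vim (-0.44 ± 0.14), and of 22 extracellular matrix genes 0 had an unadjusted p below 0.05. Periportal and pericentral hepatocyte markers had medians of 0.11 and -0.16, with 0 nominally higher and 1 nominally lower (Cdh1, -0.44 ± 0.19) of 9 and 0 of 11. Of 2 tested cholangiocyte markers 1 was nominally lower, Sox9 (-0.43). Exocrine pancreas markers were detectable, and of 4 tested 1 was nominally higher, Amy2a5 (0.45). Cela2a was at 6.78 in mutant 3 and 4.53 to 5.22 in the other 6 livers.

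Single livers differed within a genotype on some genes, by a search made after the data had been seen. On 26 probes the mutant livers spanned more than 1.5 on the log2 scale while the wild types spanned less than 1, and on 39 probes the reverse held. Of the 26, 5 (19.2%) were on chromosome 17, against 4.68% of the tested probes. They included H2-T10 and both probes of H2-T23, another class I gene. The dimmer H2-T23 probe was 9.57 in mutant 1, 7.75 in mutant 2 and 4.13 in mutant 3, against 8.88 to 9.24 in wild types. Nubp2 on the same chromosome was 7.84 in mutant 1 and 6.22 and 6.79 in mutants 2 and 3, against 7.67 to 7.99. Among the wild types, the chromosome 15 genes Tomm22, Slc25a17 and Atf4 were low in wild types 3 and 4 only, with Tomm22 at 4.53 and 4.16 there and 6.74 to 7.71 in the other 5 livers. A Zfp330 probe was 8.03, 7.79, 6.99 and 7.07 in wild types, 6.83 in mutant 1 and 4.22 and 4.19 in mutants 2 and 3, while the other Zfp330 probe was within 6.25 to 7.02 in all 7. A Cxadr probe was low in wild type 3 (4.90) and all mutants (4.18 to 4.80) and 7.05 to 8.22 in the other wild types, and the brightest Cxadr probe stood at -0.18 ± 0.13. For such genes the mean of a genotype describes no single liver well.

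The liver difference was set against that of the hearts of the same genotypes, by subtracting the change in heart from the change in liver, over 11415 probes above background in both tissues, with the animal number as a random block. The tissues had been scaled separately by the authors, and the estimated correlation between tissues of one number was 0.0116. Over all probes 248 passed an adjusted p of 0.05 (2.17%), and 233 did without the animal number. The disagreement of animal numbers between tissues described above touches the former fit. Of the 12 probes called in liver, 7 passed. Those 12 had been picked by their liver difference, which enters this comparison again. A high share passing was thus favoured in advance, and the tissue differences may be overstated. Heart differences given here come from the fit of both tissues, and their SE and heart adjusted p from limma on the hearts alone. Usp2 stood at -0.55 ± 0.17 in hearts, and its difference between tissues was 2.94 ± 0.26 (adjusted p = 2.45e-05). Alas1 stood at 0.21 ± 0.11 in hearts, with a tissue difference of 2.20 ± 0.28. Rnf125 stood at 0.25 ± 0.11, with a tissue difference of -1.49 ± 0.18. Id2, Trip6, Ppl and Ncbp2 also passed. For the other 5 no difference between tissues was shown, which does not mean that they changed alike. Ciart was called in hearts too, at 1.29 ± 0.15 and 0.88 ± 0.12 on its 2 probes, and its tissue differences were -0.32 ± 0.20 and 0.03 ± 0.18. Pdk4 stood at -0.52 ± 0.17 in hearts (tissue difference -0.59 ± 0.24, adjusted p = 0.227), Tagap at 0.37 ± 0.09 and Man1a at -0.08 ± 0.16. Among the clock genes near the liver threshold, Per2 (brighter probe) and Tef had opposite signs in hearts but were not called there. They stood at -0.44 ± 0.12 (heart adjusted p = 0.0811) and -0.28 ± 0.11 (heart adjusted p = 0.259). Their tissue differences were 1.68 ± 0.28 and 1.48 ± 0.24 (adjusted p = 0.00623 for both). Dbp was positive in both tissues and was called in hearts, at 0.67 ± 0.14 (heart adjusted p = 0.0313). Its tissue difference was 1.77 ± 0.52 (adjusted p = 0.0906).

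**Figure D5:**
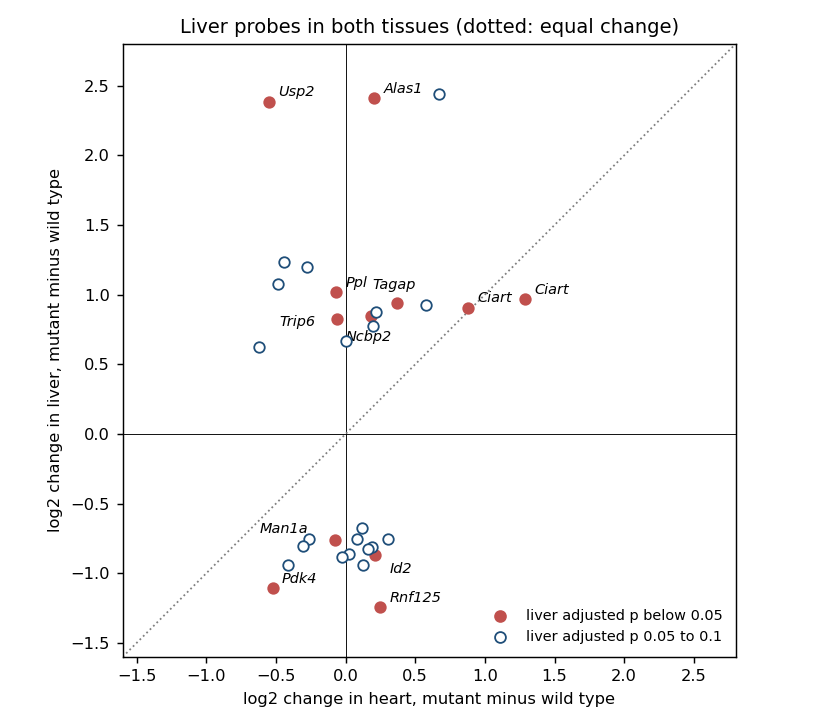
Log2 change in liver (y axis) against that in heart (x axis), mutant minus wild type, of the probes with a liver adjusted p below 0.05 (filled) or between 0.05 and 0.1 (open) that were above background in both tissues. The dotted line marks equal change: Ciart lies near it, and Alas1 and Usp2 lie far above it.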

How the data were processed

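RNA had been extracted with Trizol, column-purified, and labelled as biotinylated cRNA, per the labels' protocols. The deposited linear intensity values were made by the authors with GenomeStudio 2011.1, per the submitters' processing notes. Their normalization is not given in the sources used here, but all 7 liver arrays shared a median intensity of 113.105 to 113.112, and livers and hearts had been scaled separately. A second table, with 15 columns whose names match no label, was not used.

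For each array the mode and SD of the low values gave the background, which was corrected by normexp. An offset of 16 was added and log2 taken. A probe was tested if above background (normal p below 0.05) on at least 3 of the 7 livers. The test was limma 3.58.1 (R 4.3.3, statmod 1.5.0), two-sided, with Benjamini-Hochberg adjustment over all probes tested, and was tested on simulated data. Each p-value weighs the genotype difference against the spread between livers within a genotype, moderated over all probes tested. With a single array per liver, that spread also holds technical variation. Platform annotation gave 1 symbol for 23978 probes, several for 0 and none for 1719. In lists and families each gene counted once, by its brightest liver probe. Genes named above were drawn from 4 sources, not all of whose members are named. These were the probes with an adjusted p below 0.1, and up to 5 members of each list with the smallest p and its textbook members. Up to 3 of each family and the 20 largest differences each way without overlap were the others. Also below 0.1, with log2 differences, were Rsph3a (0.93), Zfp160 (0.88), Mmgt1 (0.67), Vgll4 (0.63), Fam25c (-0.88) and Fbxo33 (-0.81). The comparison and the gene lists were chosen with earlier results of these data known. Alternatives covered background, offset, filter, normalization, model and single arrays.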

Additional observations from a re-analysis of the deposited data

Results flagged for a closer look

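In hearts and livers the genotype difference was compared directly with limma, and 7 genes called in liver differed between the tissues. They had been picked by their liver difference, which this comparison uses again, so a tissue difference was favoured in advance. The liver change minus the heart change was 2.938 for Usp2, 2.203 for Alas1, 1.083 for Ppl, 0.8914 for Trip6, 0.6658 for Ncbp2, -1.078 for Id2 and -1.492 for Rnf125.

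Among the 4 wild-type livers, 1 array lay far from the others on 15 of 199 probes checked, by the gap to its neighbour as a share of the group's range, against Dixon's limit for 4 values. Chance gives about 1 in 20 such groups. Ciart had shares of 0.921 and 0.835 on its 2 probes. For metabolic genes the shares were 0.956 for Acaca, 0.959 for Stard4, 0.865 for Acadl, 0.863 for Urod and 0.883 for Asah1. They were 0.878 for Fth1, 0.862 for Txn1 and 0.924 for Selenbp2. For the remaining genes the shares were 0.978 for Cxcl9, 0.843 for C8b, 0.935 for Psmd8, 0.899 for Egr2 and 0.868 for Sparc.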

How the results depend on the processing

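The number of probes called in liver, 12 (8 higher and 4 lower), depended on the setting. It was 5 (3 higher, 2 lower) without background correction and offset, 3 (3 and 0) with a floor of 16, 1 (1 and 0) with an offset of 4, and 8 (4 and 4) when all 7 arrays had to be above background. With no filter on dim probes limma called 0 (0 higher, 0 lower), while 2064 probes had an unadjusted p below 0.05 there. It was 37 (17 and 20) with a trended, robust prior and 152 (65 and 87) with all 15 arrays in 1 fit, and all 12 were among both. An offset of 50 gave 13, sharing 9, and quantile normalization gave the same 12. With the replicate block there were 32 calls (16 and 16), 7 of them among the 12. Deviations of same-numbered livers correlated at -0.0431, 0.0141 and -0.0433 over the probes tested, so no strong shared deviation was seen. Whether the numbers mark pairs in another way was not tested. Leaving out each liver in turn gave 2 to 54 calls (2 to 29 higher, 0 to 25 lower): 2 without wild type 1, 6 without wild type 3, 24 without wild type 4, 54 without mutant 1, and 2 without mutant 2 or mutant 3. The cause was not tested. The 12 called probes lost their call in 96 of 200 comparisons with an alternative, from 2 of 16 for Usp2 to 13 of 17 for Man1a. Their differences kept their sign but moved, for most probes between no background correction and a floor or an offset of 4: Usp2 from 0.87 to 3.36, Alas1 from 2.22 to 2.59, Ciart from 0.24 to 1.70 and from 0.22 to 1.68, Ppl from 0.27 to 1.67, Tagap from 0.50 to 1.10, Trip6 from 0.31 to 1.17, Ncbp2 from 0.22 to 1.40, Pdk4 from -1.61 to -0.38, Man1a from -1.23 to -0.24, Rnf125 from -1.35 to -0.93 and Id2 from -0.93 to -0.62. For liver minus heart, 248 calls became 136 to 288 with single arrays left out and 346 with an offset of 50. They became 212 with quantile normalization and 233 without the animal number as a random block. Among all 883 gene results 130 comparisons with an alternative gained a call. In 252 others, of probes not called, the difference moved by at least the pooled SD within genotypes. A reversed call could be scored only for the 12 called probes, and 0 of their 200 comparisons gave one. The median of all genes moved by less than 0.1 under every setting, but the list medians were less stable. Of 1375 comparisons of a list median with an alternative, 66 moved by 0.1 or more. The median of cholesterol synthesis ran from -0.363 to -0.002, that of the red-cell markers from 0.01 to 0.36 and that of the Kupffer cell markers from -0.29 to 0.01. Dim probes near the offset understate a change.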
